A study of Sus scrofa with 8 samples.

Results

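Glycolysis turns glucose 6-phosphate into pyruvate, and lactate dehydrogenase then reduces pyruvate to lactate. In skeletal muscle this route supplies ATP quickly, and fast fibres hold more of its enzymes than slow fibres. Most steps have a form that prevails in muscle, encoded by genes such as PFKM, ALDOA, PGAM2, ENO3, PKM and LDHA. The 10 genes described here cover the steps from GPI to LDHA. They were chosen by name, as the spots whose only gene symbol in the platform annotation is GPI, PFKM, ALDOA, TPI1, GAPDH, PGK1, PGAM2, ENO3, PKM or LDHA. All 10 had spots, 42 of the 9984 on the array, and all 10 were measured in every couple of samples and tested.

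The series asked how diets alter pig skeletal muscle. Labelled cDNA of a pig sample from a high energy diet and of one from a low energy diet competed on each array, in 2 colours, with low energy as the reference. The 8 arrays form 4 couples of samples, each run in both dye orientations: low energy sample 49 with high energy sample 40, 61 with 41, 142 with 40 again, and be with ae, names of unknown meaning. The labels do not state breed, age, muscle, diet composition or how many animals a sample holds. The p-values therefore measure only how these couples vary, and that variation may be technical. Both arrays of a couple carry the same RNAs and count as 1 replicate (n = 4 couples).

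A value is the log2 ratio of an array's channels after centring on the median of that array, so 0 is the typical spot. A positive value was read as higher with the high energy diet, which the labels make likely and do not state. The turned value is the ratio after the values with high energy in dye 3 had their sign reversed. If the deposited ratios ran from dye to dye and not from diet to diet, the turned value would be the diet ratio, and a sign kept on all 8 arrays would follow the dyes. The labels do not settle which holds. Array values are given by couple, with the array that had high energy in dye 5 first and its dye swap second. Departures from the mean of a dye orientation correlated between the arrays of a couple at only -0.045 to 0.037 over 3640 features. Differences between couples were thus in general hardly repeated by the dye swap, and those given below are descriptions. Fitted means are limma's, with the standard error (SE). Couples 1 and 3, which share a high energy sample, weigh 0.2 each in them, and couples 2 and 4 weigh 0.3 each.

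Values were present for 77.6% to 94.4% of spots per array, and the SD of all log2 ratios on an array was 0.341 to 0.724. Members filled 324 of their 336 spot values. All 13 skeletal muscle marker genes looked for, among them ACTA1, CKM and DES, were measured on all 8 arrays, but ratios give no level with which to check the tissue. No sample level of any gene can be given for the same reason.

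PGAM2, ENO3 and PKM, 3 successive enzymes at the end of the pathway, had the highest ratios of the 10 and lay above 0 on all 8 arrays. The ratio was 0.57 ± 0.21 for PKM, 0.35 ± 0.089 for PGAM2 and 0.28 ± 0.14 for ENO3 (SE, n = 4 couples), or 1.48-fold, 1.27-fold and 1.22-fold. This order holds only for the direction assumed: turned, the values were 0.053 for PKM, -0.057 for PGAM2 and -0.013 for ENO3, and the highest were those of LDHA at 0.14 and GAPDH at 0.091. The other enzymes had ratios between -0.071 (PGK1) and 0.10 (TPI1), and the median of all 10 was 0.078, against -0.012 over the 5025 features tested. No member passed limma's test after Benjamini-Hochberg adjustment (adjusted p = 0.996 for each), as was the case for all features (0 of 5025, 0%). At an unadjusted p under 0.05 there were 2 of 10 members, PGAM2 and PKM, and 190 of 5025 features (3.78%), of which 69 lay above 0 (1.37%).

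Of the 10 members, 9 had a mean above 0, compared with 46.4% of all features tested. In all 4 couples 4 of 10 members were above 0, compared with 7.47% of the 3640 features with 4 couples. Above 0 on all 8 arrays were 3 of 10 members, compared with 0.797% of the 3640 features measured on all arrays. Averaging several spots steadies a gene, and among the 266 named genes with 4 or more spots 8 were above 0 on all arrays (3.01%). Members were not left out of these, so PGAM2 with 4 spots and ENO3 with 6 are among the 8. PKM, with 2 spots, is not in that set. The mean over the 10 members lay between 0.107 and 0.189 on each of the 8 arrays. Without PGAM2, ENO3 and PKM the mean of the other 7 lay between -0.094 and 0.12. These 3 were singled out after their values were seen. With the sign turned, 4 of the 10 members were above 0, with a median of -0.029. These shares and means describe the list, which was chosen with earlier results of these data known, and are not tests of it.

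**Figure D1:**
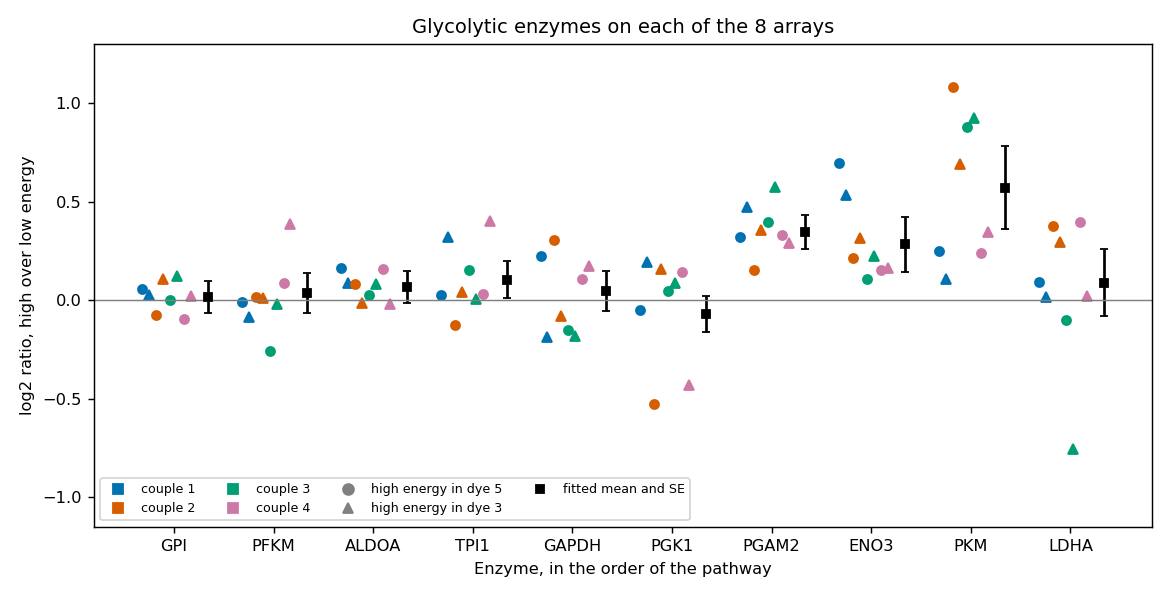
Log2 ratio of high over low energy muscle for each enzyme, in pathway order, on each of the 8 arrays, with the mean of its spots as a point; colours are couples, circles have high energy in dye 5 and triangles in dye 3, and black squares are limma's mean with its SE over 4 couples. PGAM2, ENO3 and PKM lie above 0 on all 8 arrays, while the other enzymes have arrays on both sides of 0.

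GPI, which converts glucose 6-phosphate to fructose 6-phosphate, had 0.057 and 0.027 in couple 1, -0.074 and 0.11 in couple 2, 0.0027 and 0.12 in couple 3, and -0.093 and 0.022 in couple 4. All its arrays lay between -0.093 and 0.12, with both signs in couples 2 and 4. Its fitted ratio was 0.015 ± 0.080 (turned -0.054).

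PFKM, the muscle subunit of phosphofructokinase, which catalyses the committed step of the pathway, differed more between couples than GPI. It had -0.012 and -0.087 in couple 1, 0.014 and 0.013 in couple 2, -0.26 and -0.020 in couple 3, and 0.088 and 0.38 in couple 4. Couples 1 and 3, which share high energy sample 40, were below 0 on all their arrays, and couples 2 and 4 above 0 on all of theirs. This split was seen in the values and not counted over all features. The fitted ratio was 0.037 ± 0.10 (turned -0.061), and it was -0.048 without couple 4.

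ALDOA, the muscle aldolase, which splits fructose 1,6-bisphosphate, had 8 spots in 4 pairs of neighbours. The gene mean was 0.16 and 0.089 in couple 1, 0.082 and -0.012 in couple 2, 0.027 and 0.083 in couple 3, and 0.16 and -0.018 in couple 4. All 4 couple means were above 0, between 0.035 and 0.13. The fitted ratio was 0.068 ± 0.081 (turned 0.042), and the 4 pairs had means between 0.028 and 0.10. In couple 4 the first pair and the second had 0.213 each on the array with high energy in dye 5, and 0.027 and 0.026 on its swap.

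On that swapped array some deposited ALDOA ratios appeared to touch the limit of the scan. Deposited ratios can be written as a ratio of whole numbers. For both spots of the first pair it was 22419 over 21845 in lowest terms, which equals 67257 over 65535. For 1 spot of the second pair it was 67256 over 65535. The number 65535 is the largest that a 16-bit image holds. A spot of MYOZ1, a Z-disc protein of fast fibres, had the same ratio on that array. A ratio that can be written with 65535 was found for 10 spots of that array and 8 of the couple 1 array with high energy in dye 5. It was found for 1 spot of the couple 4 array with high energy in dye 5 and 0 of the other 5 arrays. No other member spot was among these spots. For these ALDOA spots the ratio on that array may rest on a reading at the limit and may not be the true ratio. The numerators exceed 65535, and how the signals were scaled is not stated, so the direction of any error is unknown. The match of these spots there may come from the limit and does not show that they agree.

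TPI1, triosephosphate isomerase, which interconverts the products of aldolase, had 6 spots that differed by pair. Its gene mean was 0.028 and 0.32 in couple 1, -0.13 and 0.040 in couple 2, 0.15 and 0.0049 in couple 3, and 0.031 and 0.40 in couple 4. The array with high energy in dye 3 was the higher one in couples 1, 2 and 4. The fitted ratio was 0.10 ± 0.093 (turned -0.095).

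The first TPI1 pair had -0.077 and 0.24 in couple 1, 0.016 and 0.21 in couple 2, 0.16 and 0.57 in couple 3, and 0.21 and 0.79 in couple 4. The array with high energy in dye 3 was thus higher in all 4 couples, with a mean of 0.45 against 0.075 for the arrays with high energy in dye 5. The second pair was also higher in dye 3 in couples 1, 2 and 4, and had 0.33 and -0.76 in couple 3. The second pair and the third had means of 0.013 and 0.084, with 4 of 8 arrays above 0 each.

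GAPDH, glyceraldehyde 3-phosphate dehydrogenase, which is often used as a reference gene, had 8 spots, and its gene mean hides pairs that disagree. The gene mean was 0.22 and -0.19 in couple 1, 0.30 and -0.078 in couple 2, -0.15 and -0.18 in couple 3, and 0.11 and 0.17 in couple 4, with a fitted ratio of 0.047 ± 0.099 (turned 0.091). The fourth pair was above 0 in 16 of 16 spot values. It had 0.59 and 0.40 in couple 1, 0.57 and 0.13 in couple 2, 0.23 and 0.14 in couple 3, and 0.32 and 0.29 in couple 4, a mean of 0.33.

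The other GAPDH pairs had means of -0.12, -0.13 and -0.050. The first of them rests on 1 value: its second spot had -3.14 on the couple 1 array with high energy in dye 3, where its neighbour had 0.026. Without that value the mean of the pair was 0.079 and the fitted ratio of the gene 0.089. The second pair and the third were dim, with a median recovered signal (explained below) of 483 and 788. The first pair had 29435 and the fourth 2222.5. The difference between the fourth pair and the others was not tested, and the annotation gives all 8 spots the same gene.

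PGK1, phosphoglycerate kinase, the first step of the pathway that makes ATP, was the only member with a mean below 0. It had -0.050 and 0.19 in couple 1, -0.53 and 0.16 in couple 2, 0.046 and 0.085 in couple 3, and 0.14 and -0.43 in couple 4. The arrays of couples 1, 2 and 4 had opposite signs, with the array in dye 3 higher in couples 1 and 2 and lower in couple 4. Its fitted ratio was -0.071 ± 0.093 (turned -0.045), from 2 dim spots of which 13 of 16 values were present.

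PGAM2, the muscle phosphoglycerate mutase, had the smallest p of the members in the assumed direction. Its gene mean was 0.32 and 0.47 in couple 1, 0.15 and 0.36 in couple 2, 0.40 and 0.57 in couple 3, and 0.33 and 0.29 in couple 4. All 8 arrays lay between 0.15 and 0.57, and the SD between couples was 0.10, the smallest of the 3 enzymes with high ratios. The ratio of 0.35 ± 0.089 (turned -0.057) ranked 5 by p among 2556 genes, and the turned value 1205. Of its 32 spot values 31 were above 0.

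The PGAM2 pairs agreed in sign and differed in size. The first had a mean of 0.22 and lay between 0.078 and 0.43 on the arrays. The second had a mean of 0.50 and lay between 0.23 and 0.77. It was the dimmer pair, with a median recovered signal (explained below) of 1491 against 2917. Its spots differed by a median of 0.215, against 0.135 in the first pair. The second pair was the higher one on all 8 arrays, by the least on the couple 1 array with high energy in dye 5, where both rounded to 0.32.

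ENO3, the muscle enolase, was highest in couple 1. Its gene mean was 0.69 and 0.54 in couple 1, 0.21 and 0.31 in couple 2, 0.11 and 0.23 in couple 3, and 0.15 and 0.16 in couple 4. Both arrays of couple 1 lay above every array of the other couples, a split seen in the values and not counted over all features. The fitted ratio was 0.28 ± 0.14 (turned -0.013) and 0.20 without couple 1, and 45 of 48 spot values were above 0.

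Among the ENO3 pairs, the brightest had the lowest ratio. It had 0.17 and 0.21 in couple 1, -0.040 and 0.10 in couple 2, 0.13 and 0.064 in couple 3, and 0.17 and 0.13 in couple 4, a mean of 0.12. The other pairs had means of 0.40 and 0.38, and in couple 1 they reached 0.95 and 0.80 in the second pair and 0.97 and 0.60 in the third. The excess of couple 1 was thus carried by the second pair and the third, and was not seen to that size in the first.

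PKM, the pyruvate kinase of muscle and many other tissues, which makes the second ATP of the pathway, had the highest ratio of the 10 members in the assumed direction. It had 0.25 and 0.11 in couple 1, 1.08 and 0.69 in couple 2, 0.88 and 0.92 in couple 3, and 0.24 and 0.34 in couple 4. Couples 2 and 3 did not overlap with couples 1 and 4 on any array, and both dye orientations put the couples in those 2 levels. This split was picked after the values were seen, and its share over all features was not counted. All 16 spot values were above 0. The fitted ratio of 0.57 ± 0.21 (turned 0.053) ranked 7 from the top among 2556 genes and 39 by p, and the turned value 755 from the top and 1409 by p.

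The couples that were high for PKM were not those high for ENO3. Couples 1 to 4 had means of 0.18, 0.89, 0.90 and 0.29 for PKM and 0.61, 0.26, 0.17 and 0.16 for ENO3, while PGAM2 had 0.40, 0.26, 0.49 and 0.31. Couples 1 and 3 share high energy sample 40 and had 0.18 and 0.90 for PKM.

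LDHA, the muscle lactate dehydrogenase, ended the series with couples of opposite sign. It had 0.092 and 0.014 in couple 1, 0.38 and 0.30 in couple 2, -0.098 and -0.75 in couple 3, and 0.40 and 0.022 in couple 4. Both arrays of couple 3 were below 0 and the other 6 arrays above it, a split seen in the values and not counted over all features. The fitted ratio of LDHA was 0.089 ± 0.17 (turned 0.14), and it was -0.017 without couple 2 and 0.20 without couple 3.

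**Figure D2:**
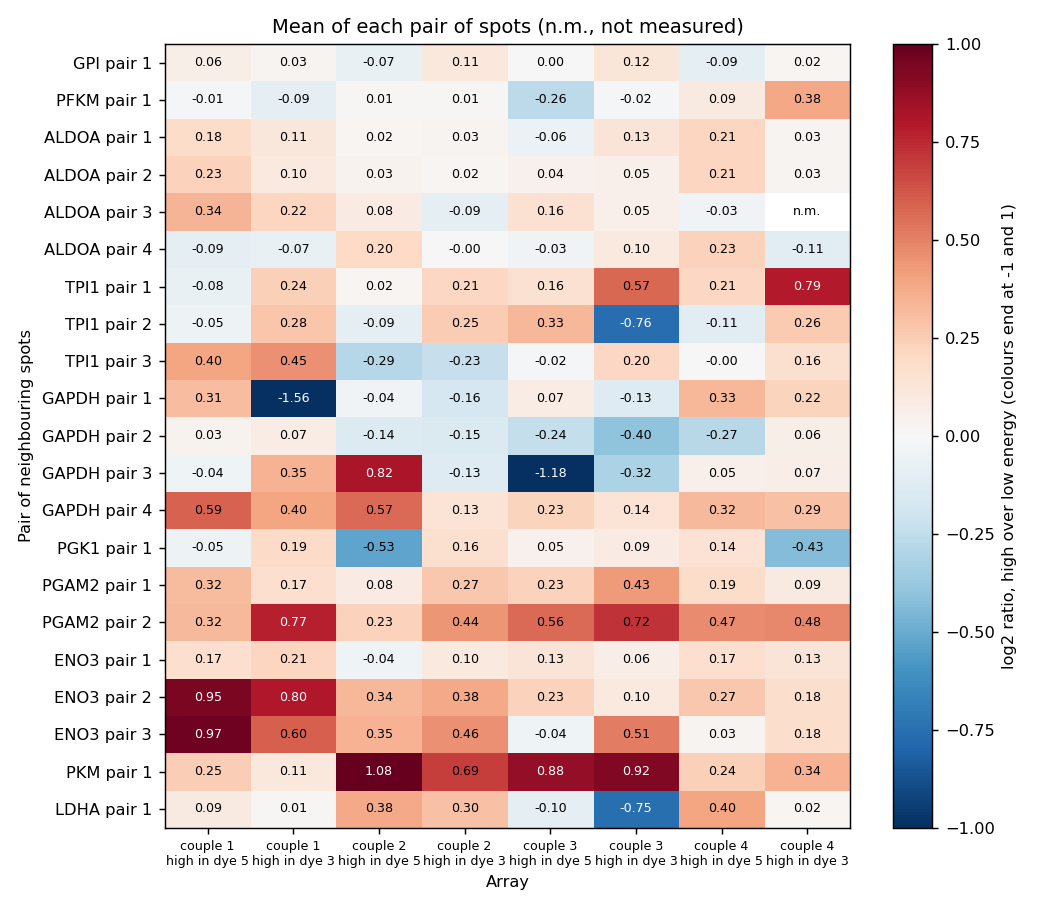
Mean log2 ratio of each of the 21 pairs of neighbouring member spots (rows, in pathway order) on each array (columns), red above 0 and blue below. The PKM row is deepest in couples 2 and 3, the second ENO3 row and the third in couple 1, and the fourth GAPDH row is red on all 8 arrays while the other GAPDH rows hold both colours.

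The 42 spots form 21 pairs of neighbours with the same symbol, and these show how well a ratio repeats within an array. Of the 21 pairs, 17 had a mean above 0, and 6 were above 0 on all 8 arrays: PKM, both PGAM2 pairs, the second ENO3 pair, the fourth GAPDH pair and the second ALDOA pair. The same shares over all pairs of the array were not counted, so these counts only describe the member pairs. The median difference between the spots of a pair was 0.127 for members, against 0.297 over the 3847 pairs of the array with both spots on at least 6 arrays. Member pairs were brighter. Split at a recovered signal of 2000 (explained in the next paragraph), the medians were 0.084 against 0.127 for bright and 0.265 against 0.355 for dim pairs. Brightness was not matched within these classes, and members were not left out of the pairs of the array. The sources do not say whether pairs of a gene hold the same cDNA. The accessions of the annotation are human, so pig transcripts may bind them unequally.

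Spots differed less where they were brighter. A spot was at least as bright as the larger whole number behind its ratio, which is named its recovered signal. Its median over arrays was 186 for PGK1, 527 for LDHA and 217.5 for the third ALDOA pair, whose spots differed by 0.31, 0.31 and 0.56 (medians over arrays). It was at least 2000 in 12 pairs, whose median differences lay between 0.034 and 0.135, and lower in 9 pairs, with 0.182 to 0.561. Across the 21 pairs Spearman's rho of recovered signal and difference was -0.89, and over all 3847 pairs -0.63, as descriptions, since both come from the same values. The PGK1 and LDHA ratios therefore rest on less precise spots than those of PFKM or PKM.

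**Figure D3:**
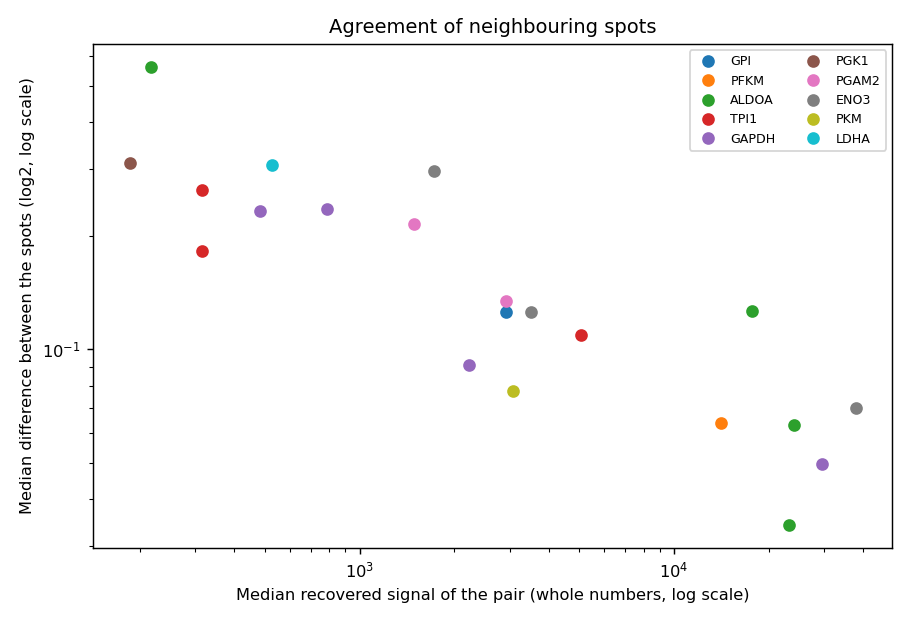
Median difference in log2 ratio between the neighbouring spots of each of the 21 member pairs against the median recovered signal of the pair, both on log axes, one colour per enzyme. The difference runs from 0.56 in the third ALDOA pair down to 0.034 in the first ALDOA pair.

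Brighter spots as a whole did not lie above 0. Among 1016 other features with a recovered signal of at least 2000, 43.2% had a mean above 0. Of the 1000 measured on all arrays, 0.4% were above 0 on all 8. Their mean lay between -0.093 and -0.0031 on the arrays, below the mean of the members on each.

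Other genes of the pathway were taken from a list of 32 isoenzymes, regulators and carriers, of which 9 were on the array and tested. No gene of the 9 passed limma's test, 0 had an unadjusted p under 0.05, 3 were above 0, and their median was -0.10. With the sign turned 7 were above 0, with a median of 0.088, and in the assumed direction 7 were above 0 without couple 2 and 5 without couple 4. The lowest p of the 9 belonged to PFKFB4, an enzyme that makes and breaks down the activator fructose 2,6-bisphosphate, with 0.42 ± 0.17 (turned 0.14). PFKFB4 had 0.52 and 0.42 in couple 1, -0.38 and 0.23 in couple 2, 1.41 and -0.041 in couple 3, and 0.97 and 0.43 in couple 4. Its arrays were above 0 in 6 of 8 cases, and the swap did not repeat the 1.41 of couple 3. HK1, the hexokinase that starts the pathway in many tissues, had -0.14 ± 0.12 in 3 couples (turned -0.013).

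For 4 pairs of a member and another form of the same enzyme, the difference was tested with an exact sign-flip permutation test over couples, two-sided, which cannot go below 0.13 with 4 couples or 0.25 with 3. No difference could therefore pass, and the adjusted p was 1 for all 4. PFKL, the liver form of phosphofructokinase, had -0.10 ± 0.16 (turned 0.032), and PFKM minus PFKL was 0.012 ± 0.27 (SD, n = 3 couples, exact p = 1). PFKP, the platelet form, had -0.17 ± 0.18 (turned 0.12), and PFKM minus PFKP was 0.13 ± 0.59 (SD, n = 4, exact p = 0.875). ALDOC, the brain aldolase, had 0.26 ± 0.13 (turned 0.26), and ALDOA minus ALDOC was -0.21 ± 0.24 (SD, n = 3, exact p = 0.50).

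LDHB, the heart form of lactate dehydrogenase, which prevails in oxidative fibres, had -0.15 and -0.48 in couple 1, -0.87 and -0.37 in couple 2, 0.30 and 0.34 in couple 3, and -0.14 and 0.14 in couple 4. Couple means of LDHA were 0.053, 0.34, -0.43 and 0.21, against -0.31, -0.62, 0.32 and -0.0011 for LDHB. The signs were opposite in couples 1, 2 and 3, with LDHA below 0 and LDHB above it in couple 3. In couple 4 the arrays of LDHB had opposite signs and its mean was close to 0. The mean difference, LDHA minus LDHB, was 0.20 ± 0.71 (SD, n = 4, exact p = 0.625), since couple 3 had -0.75 and the others 0.21 to 0.96. Both genes had 2 spots, and a ratio within an array does not say in which of its 2 samples a gene changed.

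**Figure D4:**
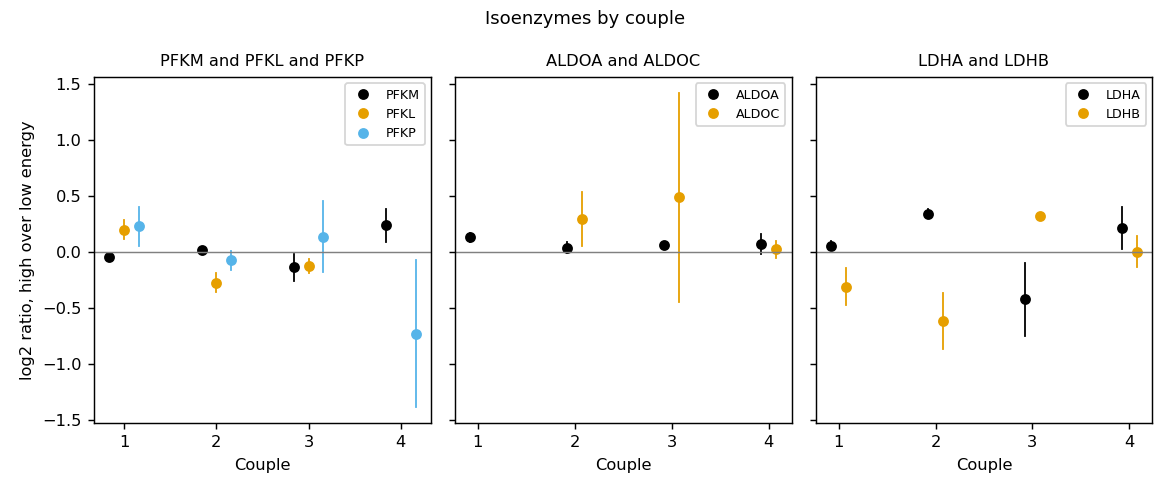
Log2 ratio of high over low energy muscle by couple for members and other forms of the same enzyme, with points for couple means and lines joining the values of both dye orientations. LDHA is above 0 in couples 1, 2 and 4 and below it in couple 3, and LDHB has the opposite sign in couples 1, 2 and 3 and a mean near 0 in couple 4.

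Fibre type genes were looked at beside the enzymes, since fast and slow fibres differ in glycolysis. Of 10 fast fibre contractile genes tested, 6 were above 0, with a median of 0.047 (turned -0.0096). Of 11 slow fibre genes 0 were above 0, with a median of -0.098 (turned 0.0013), and 0 of either list passed limma's test, with 1 and 3 at an unadjusted p under 0.05. Over all features tested, 46.4% were above 0 and 3.78% had an unadjusted p under 0.05 in limma's test. Medians by couple ran from 0.0027 to 0.15 for the fast and from -0.19 to -0.072 for the slow list. Markers of blood, fat, matrix, vessels and immune cells were above 0 in 2 of 4, 1 of 3, 3 of 4, 2 of 3 and 3 of 5 genes. In a tissue sample, fewer fibres of a type and less RNA per fibre cannot be told apart. The part of fibre type in the ratios of the enzymes was not tested.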

How the data were processed

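Muscle RNA was measured on 8 arrays of 4 couples. The authors deposited 1 log2 ratio per spot and array; per the labels low energy is in channel 1 and high energy in channel 2. How spots were filtered, corrected and normalized is not stated. Base 2 was read from the values: 5.64% to 17.5% per array were logarithms in base 2 of fractions with a denominator up to 60, against at most 0.312% in base 10 and 0% in base e. A ratio counts as one of whole numbers when it matches within the rounding of the ninth decimal.

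Arrays were centred on their medians, the spots of a symbol averaged per array, and swapped arrays averaged per couple. Features with both orientations in at least 3 couples were fitted in limma 3.58.1 (R 4.3.3, lmFit and eBayes), couples that share a high energy sample being given a correlation of 0.5, two-sided, Benjamini-Hochberg over 5025 features, threshold 0.05. The step was tested on simulated data. Arrays of a couple are paired by the labels; their deviations from the mean of their orientation correlated at 0.013, 0.037, 0.025 and -0.045 in couples 1 to 4 over 3640 features, which leaves the direction of the ratios unsettled. Departures of a couple were thus hardly repeated by its dye swap over these features. The number of arrays limits the precision.

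Named were all members with a spot, isoenzymes of members and the 3 other glycolysis genes with the smallest p, and the 5 genes most like the members. Members and lists were chosen with earlier results of these data known. Gene symbols are those of the platform annotation, and no coordinates were used; all 10 symbols also occur in the pig RefSeq table.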

Additional observations from a re-analysis of the deposited data

How the results depend on the processing

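In 17 alternative settings no member passed limma's threshold, and the adjusted p of PGAM2, the lowest of any member, ranged from 0.165 to 0.999. The ratios of PKM and ALDOA were above 0 and that of PGK1 below 0 wherever they were computed. With the sign turned, 4 members were above 0, the median was -0.029 and 7 other glycolysis genes were above 0; PGAM2 had -0.057, ENO3 -0.013, GPI -0.054, PFKM -0.061 and TPI1 -0.095. Here each value is a difference between dye orientations, by construction. With high energy in dye 5 only, GPI had -0.038 and PFKM -0.024, and in dye 3 only, GAPDH had -0.044 and LDHA -0.053. Leaving out 1 couple at a time gave 8 to 9 members above 0, a median of 0.046 to 0.10, 3 to 7 other glycolysis genes above 0, and ratios of -0.048 to 0.067 for PFKM, -0.017 to 0.20 for LDHA, 0.0066 to 0.091 for GAPDH, 0.055 to 0.17 for TPI1, -0.088 to -0.023 for PGK1 and 0.43 to 0.69 for PKM. The fit of all 8 arrays with a replicate block (paired arrays, estimated correlation -0.036) gave 9 members above 0 and 353 features at an unadjusted p under 0.05, and independent couples gave 310, against 190. An unadjusted p under 0.05 was found for PGAM2 in 15 of the 17 settings, for PKM in 13, for ENO3 in 4, and for GAPDH and TPI1 in 1 each. PGAM2 missed it with high energy in dye 5 only and PKM with high energy in dye 3 only, without couple 2 and without couple 4, and both with the sign turned. Where every spot was fitted on its own, the p of a gene was the smallest among its spots, which favours genes with many spots. The 1 setting of GAPDH was that one. Added after seeing the data, leaving out values with a recovered signal under 500 dropped PGK1 and LDHA and left 1494 features tested. It gave a median of 0.15, without PGK1, the only member below 0, and TPI1 had 0.21. Of the other glycolysis genes 1 was above 0 there, but how many were still tested was not counted. Other centring and scaling moved the median of all features by at most 0.0037. The cause of the other changes was not tested. Dim spots limit the 9 pairs with a median recovered signal under 2000. These were the pairs of PGK1 and LDHA, the second and the third of TPI1 and of GAPDH, the third of ALDOA and of ENO3, and the second of PGAM2.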

Other observations

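The 5 named genes whose values over the 8 arrays were most like the mean of the 10 members, among 1918 genes measured on all arrays, were ZFAT (Pearson's r 0.99), NOP10 (0.90), PPP2R2D (0.90), EIF3G (0.89) and SCNM1 (0.87). This is a likeness in shape over arrays that share 4 couples, chosen as the highest of 1918, and is given as a description. The mean of the members varied only between 0.107 and 0.189, while ZFAT ran from -0.51 to 0.23 and NOP10 from -0.83 to 0.44, so the likeness concerns small differences between arrays.

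The 3 genes of the list of other glycolysis genes not named above complete it. PFKFB1 had couple means of -0.089, -0.87, 0.61 and -0.18, with a fitted ratio of -0.21 ± 0.27 (turned 0.14). In couple 2 both of its arrays were near -0.87, and in couple 3 they were 1.11 and 0.10. FBP2, the muscle fructose bisphosphatase, had 0.071 ± 0.087 (turned 0.088), and GPD1, which links glycolysis to glycerol 3-phosphate, had -0.025 ± 0.12 (turned 0.011).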
